A study of Mus musculus with 12 samples.

Results

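Genes of glycolysis and of the hypoxia response were followed through 12 pancreatic tumours of mice. The set holds 42 gene symbols, picked by name: the glucose transporters and the enzymes from hexokinase to pyruvate kinase, the genes that handle pyruvate, lactate and acid, the hypoxia-inducible factors with their oxygen sensors, and targets of these factors. They correspond to 43 of the 52636 gene IDs in the files, since Aldoa has 2 IDs, and all 43 IDs passed the filter on low counts and are among the 24065 genes tested. The second Aldoa ID, ENSMUSG00000114515, was near silent, between 0.0602 and 0.556 CPM, which are counts scaled to a common library size. Members below means the 43 IDs.

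The tumours were pancreatic ductal adenocarcinomas of KPC mice, a model in which tumour driver alleles are switched on by Cre recombinase in the pancreas, so that all 4 groups share these drivers. The strain was a mix of C57BL/6 and 129. The mice were labelled wild-type (+/+) or heterozygous (+/-) for Cdh11, the adhesion protein cadherin 11, and were untreated or given gemcitabine, a nucleoside drug against pancreatic cancer. Each of the 4 groups had 3 mice and each mouse gave 1 library. Neither the age of the mice nor the dose of the drug was stated in the sources used.

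Glycolysis turns glucose into pyruvate, and lactate dehydrogenase turns pyruvate into lactate, which leaves the cell with a proton. When oxygen is short, prolyl hydroxylases stop marking hypoxia-inducible factor (HIF) subunits for breakdown, and the stabilised factor switches on genes for glucose uptake, glycolysis, acid export, blood vessel growth and mitophagy. Pancreatic ductal tumours are known for dense stroma, few vessels and low oxygen. HIF is controlled mainly through the stability of its protein, which RNA levels do not report.

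HIF binds DNA at a core of ACGTG or GCGTG, and promoter windows of the members were searched for these letters on both strands. RefSeq windows (GRCm38.p6, 250 bases before to 50 bases after a start) were held for 36 of the 42 symbols, 54 windows in all. ACGTG stood in 28 of the 54 windows (51.9%) and in 19.6% of all 32851 windows. GCGTG stood in 28 windows (51.9%, against 32.4%), and either form in 41 windows (75.9%, against 43.8%). The members' windows were also richer in G and C, with a median of 61.7% against 52.7%, and all members were taken from known pathways. The 6 stretches below show the 150 bases before the start that RefSeq lists first, 5′ to 3′ on the gene's own strand, with ACGTG or its reverse complement CACGT in capitals. Overlapping matches, as in the palindrome CACGTG, run together. That start can lie downstream of the outermost start in GENCODE, so the stretches of Hif1a, Ldha and Slc16a3 lie within the GENCODE gene span and those of Car9, Slc2a1 and Bnip3 reach into it. They were picked after their matches were seen, from members described below. A match is a description of letters, and no binding was measured here.
Car9 (chr4:43506876-43507025, plus strand): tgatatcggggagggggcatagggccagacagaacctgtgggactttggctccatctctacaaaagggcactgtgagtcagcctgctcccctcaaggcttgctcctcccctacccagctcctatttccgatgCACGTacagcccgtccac
Slc2a1 (chr4:119108595-119108744, plus strand): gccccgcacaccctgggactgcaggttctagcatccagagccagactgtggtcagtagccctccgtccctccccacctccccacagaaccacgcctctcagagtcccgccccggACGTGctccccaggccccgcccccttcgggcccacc
Slc16a3 (chr11:120948917-120949066, plus strand): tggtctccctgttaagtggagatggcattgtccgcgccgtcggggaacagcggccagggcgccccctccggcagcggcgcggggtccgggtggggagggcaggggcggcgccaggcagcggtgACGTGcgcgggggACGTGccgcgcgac
Ldha (chr7:46845654-46845803, plus strand): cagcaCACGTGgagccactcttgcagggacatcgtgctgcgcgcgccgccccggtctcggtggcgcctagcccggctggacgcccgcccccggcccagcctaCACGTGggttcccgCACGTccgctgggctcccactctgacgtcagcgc
Bnip3 (chr7:138909507-138909656, minus strand): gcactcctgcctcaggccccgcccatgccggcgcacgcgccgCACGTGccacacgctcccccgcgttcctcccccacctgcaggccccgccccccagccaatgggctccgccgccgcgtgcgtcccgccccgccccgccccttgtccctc
Hif1a (chr12:73907717-73907866, plus strand): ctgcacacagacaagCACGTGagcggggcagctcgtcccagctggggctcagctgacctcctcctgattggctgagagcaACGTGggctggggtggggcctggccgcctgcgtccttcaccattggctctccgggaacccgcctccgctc

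Car9 and Slc2a1 thus carry 1 match each to ACGTG in these stretches, Slc16a3 and Hif1a 2 each, Bnip3 1 and Ldha 3. The other form, GCGTG, is neither marked nor counted there, and it also occurs, for example in the Slc2a1 and Bnip3 stretches. Ldha has a second listed window without ACGTG.

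Libraries held between 39388328 and 56559413 counts. Marker genes of duct epithelium summed to between 3433 and 9331 CPM, with none of 9 at 0 in any library. Cdh11 lay between 165 and 282.5 CPM in untreated wild-type and between 73.6 and 148 CPM in untreated heterozygous tumours, but between 62.1 and 142 CPM in treated wild-type and between 71.9 and 141 CPM in treated tumours labelled heterozygous. The treated groups are therefore called by their labels. Xist, which coats the inactive X in female cells, was above 100 CPM in 6 libraries. These were untreated wild-type mice 1 and 3, untreated heterozygous mouse 1 and all 3 treated wild-type mice, but no treated heterozygous mouse. Genotype and sex therefore cannot be told apart among treated mice. Where Xist status is a covariate below, its term comes from the untreated mice only and is carried over to treated mice. Such values do not separate genotype from sex among treated mice. In bulk tissue, fewer cells of a type and less RNA per cell cannot be told apart either.

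The members differed from tumour to tumour more than from group to group, as did the typical gene tested. The median share of variance within groups, taken up below, was 82.0% for the members and 70.7% for all genes. For each member the log2 level, log2(CPM + 0.5), was set against its mean over the 12 tumours. Untreated wild-type mouse 3 stood highest, with a median deviation of 1.04 and 40 of 43 members above their own mean. Untreated heterozygous mouse 2 came next, at 0.92, also with 40 members above their mean. At the other end, untreated wild-type mouse 2 was at -0.81, with 6 members above their mean and 17 members at their lowest. The highest and the lowest tumour thus both lay in the untreated wild-type group. Untreated heterozygous mice 1 and 3 were at -0.387 and -0.355.

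**Figure D1:**
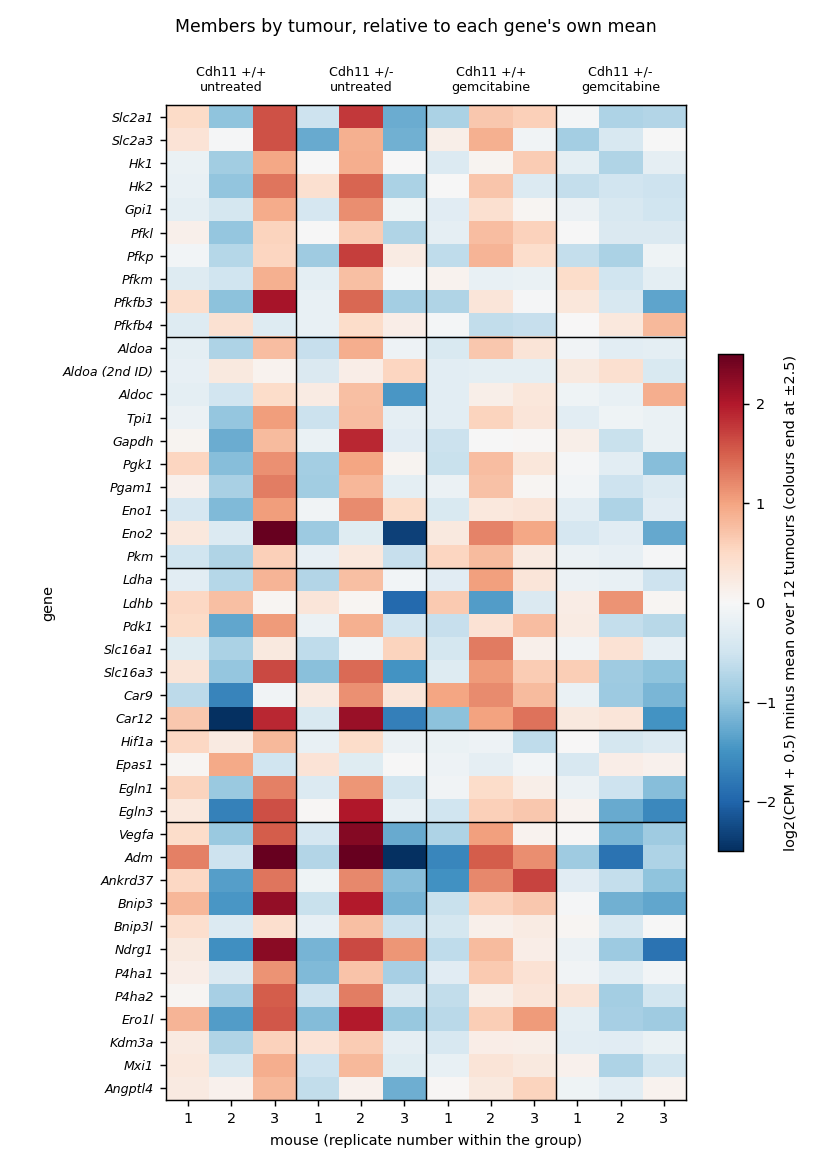
Level of each member (rows, ordered by role) in each tumour (columns, 3 per group), as log2(CPM + 0.5) minus the gene's mean over the 12 tumours; red is above and blue below that mean. Untreated wild-type mouse 3 and untreated heterozygous mouse 2 are red for most rows, 40 of 43 each, and untreated wild-type mouse 2 is blue for most.

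For 26 of the 43 members the 2 highest libraries were exactly these, untreated wild-type mouse 3 and untreated heterozygous mouse 2. Of all genes tested 3.98% had both there. One of the pair was the highest library for 32 members (18.5% of all genes), and neither was among the 2 highest for 4 members (67.9% of all genes): Epas1, Ldhb, Slc16a1 and the second Aldoa ID. The pair was picked after the values were seen, so these counts describe the pattern and are not a test. With DESeq2 size factors, upper quartile scaling, scaling on protein-coding genes or near-identical copies summed, the count of 26 was 26 or 27.

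**Figure D2:**
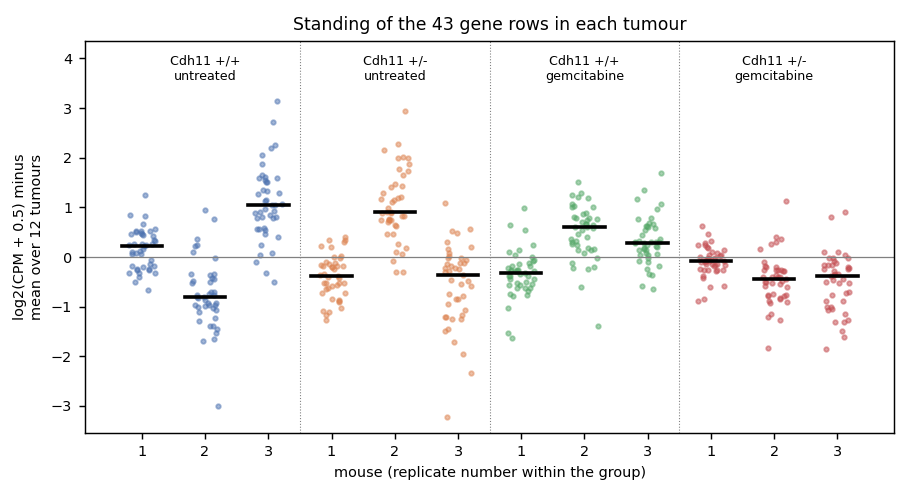
Each point is 1 member in 1 tumour, as log2(CPM + 0.5) minus its mean over 12 tumours; the bar is the median over the 43 members. Untreated tumours spread from a median of -0.81 to 1.04, while the 3 treated heterozygous tumours lie between -0.43 and -0.08.

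By role, both tumours were the 2 highest for 6 of 10 genes of glucose uptake and the first steps, 6 of 10 of lower glycolysis, 3 of 7 of pyruvate, lactate and acid handling, 2 of 4 HIF and sensor genes and 9 of 12 HIF targets. Other genes of the pathways were listed beside the members. Of 42 other hypoxia response genes, 19 had both tumours as their 2 highest. Of 33 other genes of glycolysis and pyruvate metabolism, which include tissue isoforms, 1 had. The split between the lists was not tested.

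The spread within groups was large. The median share of a member's variance that lay within groups was 82.0%, against 70.7% over all genes tested. The biological coefficient of variation from edgeR had a median of 46.5% for the members and 37.6% for all genes. From the lowest to the highest tumour the median range was 2.33 on the log2 scale, against 1.22. Some other values differed between the 2 high tumours and some were close. Fibroblast markers summed to 17040 CPM in untreated wild-type mouse 3, the highest of 12, and to 6802 CPM in untreated heterozygous mouse 2. For acinar markers the sums were 604 and 6.91 CPM, and the share of mitochondrial reads was 1.65% and 3.89%. Duct epithelium markers were close, at 5283 and 5125 CPM. Erythroid markers summed to 418 and 690.5 CPM, against 26.3 to 530 CPM elsewhere. Their part in the pattern was not tested.

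Glucose uptake and its trapping by phosphorylation open the pathway. Slc2a1 encodes GLUT1, the main glucose transporter of tumour cells. It was at 158, 56.6 and 345 CPM in untreated wild-type mice 1 to 3, 79.1, 388 and 47.6 in untreated heterozygous, 65.6, 181 and 173 in treated wild-type and 110, 66.5 and 68.6 in treated heterozygous mice. The 2 high values stand alone and the 4 groups overlapped. Its log2 fold change between genotypes was -0.12 ± 0.78 (standard error, SE) without drug and -0.77 ± 0.78 with drug (edgeR adjusted p = 0.969 and 0.915). Slc2a3, the high-affinity transporter GLUT3, lay between 5.31 and 41.8 CPM.

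Hk1 and Hk2, the hexokinases that phosphorylate glucose, lay between 86.5 and 307 CPM and between 82.8 and 454 CPM. Gpi1, the isomerase of the next step, lay between 263.5 and 841 CPM. The 3 phosphofructokinase subunits make the committed step, and all had untreated heterozygous mouse 2 among their 2 highest tumours. Pfkl, the liver type, lay between 69.1 and 231 CPM, Pfkp, the platelet type, between 47.4 and 293 CPM, and Pfkm, the muscle type, between 16.5 and 44.4 CPM. Pfkfb3 and Pfkfb4 set the level of fructose 2,6-bisphosphate, the activator of that step. Pfkfb3 followed the 2 high tumours, at 391 and 255 CPM against at most 128 CPM elsewhere. In Pfkfb4 untreated wild-type mouse 3 was not among the high tumours.

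Pfkfb4 (chromosome 9, 108991778 to 109032228, GRCm38) was at 16.4, 26.9 and 16.4 CPM in untreated wild-type, 18.2, 28.6 and 23.2 in untreated heterozygous, 19.9, 13.4 and 13.7 in treated wild-type and 20.9, 24.8 and 36.5 in treated heterozygous mice. The treated groups did not overlap. The log2 difference between treated genotypes was 0.81 ± 0.30 and did not pass over all genes (edgeR adjusted p = 0.589). With Xist status as a covariate, whose term comes from untreated mice only, it was 0.20. The genotype average over both treatments was 0.52 ± 0.21 (edgeR adjusted p = 0.596), and 0.12 with that covariate.

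Lower glycolysis holds the most abundant members. Per kilobase of merged exons, Pkm, the pyruvate kinase, had a median over the 12 tumours of 188 CPM per kb, Pgk1, phosphoglycerate kinase, 180, Aldoa, the main aldolase, 179, and Pgam1, phosphoglycerate mutase, 113. On the same scale Ldha was at 126, Tpi1, triosephosphate isomerase, at 106, Gapdh at 53.4 and Eno1 at 49.3. With the counts of near-identical copies added, described below, Gapdh was at 117, Eno1 at 116.5 and Pgk1 at 225 CPM per kb, so their place in this order is uncertain. These neighbours do not differ beyond the spread between tumours: Pkm lay between 591 and 1725 CPM, Pgk1 between 188.5 and 879 CPM and Aldoa between 346 and 1117 CPM. Pgam1 lay between 132 and 588 CPM and Tpi1 between 166 and 670 CPM. Aldoc, the brain aldolase, was low, between 3.53 and 20.2 CPM.

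Eno2 (chromosome 6, 124760053 to 124769673), the enolase of neurons and neuroendocrine cells, varied most among these enzymes. It was at 28.3, 18.6 and 212 CPM in untreated wild-type mice 1 to 3, 12.3, 19.0 and 4.29 in untreated heterozygous, 27.9, 56.4 and 46.8 in treated wild-type and 17.5, 19.2 and 9.46 in treated heterozygous mice. Untreated wild-type mouse 3 stood far above the rest. The log2 difference between untreated genotypes was -2.86 ± 0.86, with overlapping groups, and between genotypes on average -2.18 ± 0.59. Neither passed over all genes (edgeR adjusted p = 0.26 and 0.372), while DESeq2 gave adjusted p = 0.0146 and 0.00974. Without untreated wild-type mouse 3 the values were -0.98 and -1.25 (edgeR adjusted p = 0.58 and 0.636), and with Xist status as a covariate the average was -1.05. The treated genotypes did not overlap, at -1.51 ± 0.82 (edgeR adjusted p = 0.756).

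Eno1, Gapdh and Pgk1 have near-identical copies elsewhere in the genome, and reads cannot be assigned between them with certainty. For Eno1, the main enolase, the copies (mainly Eno1b and Gm4735) took between 8.44% and 63.5% of the summed counts of a library. For Gapdh, the dehydrogenase often used as a reference gene, 91 copies, chiefly Gm13394, took between 6.06% and 67.9%. For Pgk1, on the X chromosome, they took between 17.4% and 23.2%. The low shares of Eno1b stood in the untreated heterozygous tumours: it had 4449, 8261 and 792 counts there, beside 12779, 31758 and 21181 of Eno1, and between 47.8% and 59.7% of the pair's counts in the other 9 tumours. Gm13394 had 180 counts beside 39874 of Gapdh in untreated heterozygous mouse 2. Fold changes of Eno1 and Gapdh that involve this group therefore depend on the copies. Gemcitabine in heterozygous mice gave Eno1 a log2 fold change of -1.05 ± 0.50 with groups that did not overlap, and -0.10 ± 0.49 with its copies summed. Gapdh went from -1.01 ± 0.59 to -0.39 ± 0.43 in that comparison, and between untreated genotypes from 0.75 ± 0.59 to -0.06 ± 0.43. Eno1 changed sign between untreated genotypes, from 0.49 ± 0.49 to -0.47 ± 0.49. Pgk1 moved little, from -0.65 ± 0.58 to -0.66 ± 0.58 with gemcitabine in heterozygous mice. None of these passed the test.

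**Figure D3:**
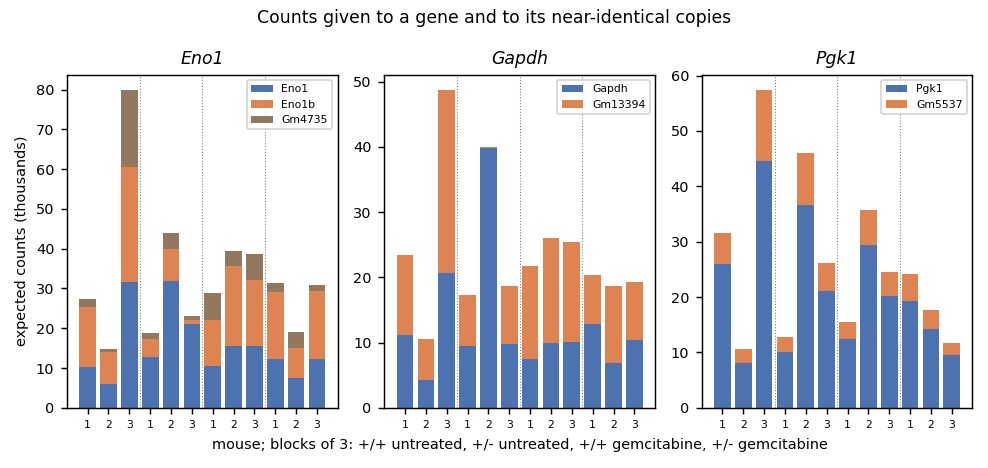
Expected counts (in units of 1000) given to Eno1, Gapdh and Pgk1 and stacked on them those of their most abundant near-identical copies, in each of the 12 tumours; dotted lines part the 4 groups. The part on copies is small in untreated heterozygous tumours for Eno1, and near even across tumours for Pgk1 (17.4% to 23.2%).

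Pyruvate is turned into lactate or enters the mitochondrion. Ldha, the lactate dehydrogenase subunit that favours lactate, was at 387, 284 and 839 CPM in untreated wild-type, 281, 784 and 446 in untreated heterozygous, 382, 946 and 578 in treated wild-type and 424, 409 and 324 in treated heterozygous mice. The highest value was in a treated wild-type tumour and the 4 groups overlapped. Its log2 difference between treated genotypes was -0.72 ± 0.47, with a 95% interval of -1.76 to 0.32 (edgeR adjusted p = 0.824). Ldhb, the other subunit, was low, between 2.22 and 22.4 CPM, and was not raised in the 2 high tumours. Pdk1, the kinase that closes the entry into the mitochondrion, lay between 26.9 and 141 CPM.

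Lactate leaves through the monocarboxylate transporters. Slc16a3 (MCT4), the HIF-induced exporter, lay between 20.5 and 184 CPM and was highest in the 2 high tumours. Slc16a1 (MCT1) lay between 43.8 and 187.5 CPM and was highest in treated wild-type mouse 2. Car12, a membrane carbonic anhydrase, ranged from 1.13 to 57.9 CPM, a 51.3-fold span.

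Car9 (chromosome 4, 43506966 to 43513729) stood apart from the other members by its variance between groups. It encodes carbonic anhydrase IX, an enzyme on the cell surface that hydrates carbon dioxide and is widely used as a marker of hypoxia. Car9 was at 14.02, 6.84 and 20.97 CPM in untreated wild-type tumours and at 26.2, 50.3 and 28.0 CPM in untreated heterozygous tumours. With gemcitabine it was at 44.9, 51.5 and 39.1 CPM in wild-type and 19.8, 11.6 and 9.82 CPM in heterozygous tumours. The group means were 13.9 ± 7.06, 34.8 ± 13.4, 45.2 ± 6.21 and 13.8 ± 5.32 CPM in the same order (SD, n = 3). Untreated heterozygous and treated wild-type tumours were thus high, and untreated wild-type and treated heterozygous tumours low, with no overlap in any of the 4 comparisons that change 1 factor. Of its variance 24.0% lay within groups, and it was the only member without overlap in all 4 comparisons. How many of all genes tested had no overlap in all 4 was not counted. How rare the pattern is among them therefore cannot be said.

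Without drug Car9 was 2.5-fold higher in heterozygous tumours, a log2 difference of 1.32 ± 0.42 (edgeR adjusted p = 0.27). With drug it was 3.28-fold lower in heterozygous tumours, at -1.71 ± 0.42 (edgeR adjusted p = 0.546). Gemcitabine went with 3.24-fold more Car9 in wild-type mice, at 1.70 ± 0.42 (edgeR adjusted p = 0.559), and with 2.53-fold less in heterozygous mice, at -1.34 ± 0.42 (edgeR adjusted p = 0.593). The difference of these drug effects was -3.03 ± 0.59, with a 95% interval of -4.33 to -1.74 (edgeR unadjusted p = 0.000308, adjusted p = 0.252). None passed over all genes with edgeR or with limma voom. DESeq2 gave adjusted p = 0.000736 for the difference of effects, 0.0332 for gemcitabine in wild-type mice and 0.0177 for genotype in treated mice.

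The difference of the drug effects on Car9 lay between -3.45 and -2.67 over 25 alternatives, and it was -3.09 without the 2 high tumours. With Xist status as a covariate it was -2.88. The genotype difference in treated mice, where that covariate equals genotype, was then -1.33 (edgeR adjusted p = 1). For Vegfa, Slc2a1 and Ldha the 95% intervals of the difference of the drug effects included 0. For Vegfa the difference of the drug effects was -1.21 ± 1.23, for Slc2a1 -0.65 ± 1.10 and for Ldha -0.72 ± 0.67.

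Other values followed the same crossed order as Car9. The noncoding RNAs 7SL and 7SK (4 genes) summed to between 55280 and 73730 CPM in untreated wild-type, between 79550 and 100200 in untreated heterozygous, between 85190 and 92230 in treated wild-type and between 69330 and 77940 in treated heterozygous tumours, also without overlap in the 4 comparisons. Duct epithelium markers (9 genes) had group means of 4294, 5146, 6506 and 4182 CPM in that order, with overlapping groups. Macrophage markers (9 genes) ran the other way, with means of 1376, 708, 771 and 1441 CPM. Their groups overlapped in both comparisons that involve untreated wild-type tumours. Means of myofibroblast, endothelial, lymphocyte, neutrophil, islet and skeletal muscle markers had that reversed order too. Those of fibroblast, acinar, erythroid, adipocyte, hepatocyte and proliferation markers had neither order. The part of these in the Car9 values was not tested.

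**Figure D4:**
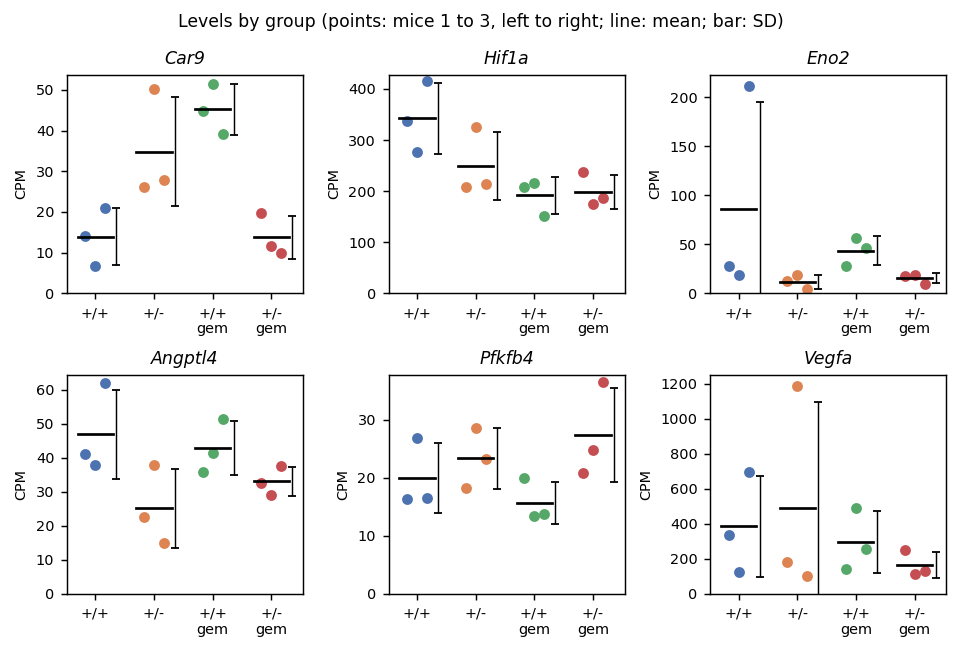
CPM of 6 members in the 12 tumours by genotype, untreated or with gemcitabine (gem); points are mice 1 to 3, lines are means and bars are the SD of 3 mice, which ends at the axis where it would pass below 0. Car9 is high in untreated +/- and treated +/+ tumours with no overlap. Eno2 is highest in untreated +/+ mouse 3, at 212 CPM, and does not overlap between treated genotypes. Vegfa is highest in untreated +/- mouse 2 and untreated +/+ mouse 3, at 1187 and 696 CPM.

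HIF and its oxygen sensors came next. Hif1a (chromosome 12, 73901375 to 73947530), the oxygen-regulated subunit of HIF-1, was at 337, 277 and 415 CPM in untreated wild-type and 208, 325 and 214 CPM in untreated heterozygous tumours. With gemcitabine it was at 209, 217 and 151 CPM in wild-type and 237, 174 and 186 CPM in heterozygous tumours. Untreated wild-type tumours were all above treated wild-type tumours. The log2 fold change with gemcitabine was -0.84 ± 0.25 in wild-type mice (edgeR adjusted p = 0.559) and -0.58 ± 0.17 on average over genotypes (edgeR adjusted p = 0.942). The average was -0.38 without the 2 high tumours. Over the same wild-type groups, erythroid markers (6 genes) summed to between 317 and 530 CPM untreated and between 36.4 and 125 CPM with drug, and fibroblast markers (9 genes) to between 10880 and 17040 CPM and between 5829 and 14700 CPM. Their part in the Hif1a values was not tested. Hif1a varied least of all members between mice of a group, with a coefficient of variation of 23.7%.

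Epas1, which encodes HIF-2 alpha, lay between 50.6 and 138 CPM and went against the pattern, with its lowest value in untreated wild-type mouse 3 and its highest in untreated wild-type mouse 2. Egln1 (PHD2), the main oxygen sensor, lay between 31.5 and 160 CPM. Egln3 (PHD3), a sensor that HIF itself induces, lay between 20.1 and 268 CPM. Both sensors were highest in the 2 high tumours. Egln1 did not overlap between treated genotypes, at a log2 difference of -0.73 ± 0.53 (edgeR adjusted p = 0.85).

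The list of HIF targets held both the widest and the narrowest range of all members, those of Adm (105-fold) and Bnip3l (2.47-fold). Vegfa, the growth factor of blood vessels, was at 333, 127 and 696 CPM in untreated wild-type, 182, 1187 and 101 in untreated heterozygous, 143, 492 and 257 in treated wild-type and 248, 110 and 131 in treated heterozygous mice. The highest and the lowest value stood in the same group, untreated heterozygous. Its log2 fold change with gemcitabine in heterozygous mice was -1.59 ± 0.88 (edgeR adjusted p = 0.673). Adm, the vasodilator peptide adrenomedullin, ranged from 1.07 CPM in untreated heterozygous mouse 3 to 112 CPM in untreated heterozygous mouse 2.

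Bnip3, a mitophagy receptor, lay between 29.2 and 373 CPM, and its relative Bnip3l between 84.4 and 208 CPM. Ndrg1, a stress-induced gene, lay between 55.2 and 959 CPM and Ankrd37, an ankyrin repeat gene, between 1.97 and 22.3 CPM. P4ha1 and P4ha2, the prolyl hydroxylases of collagen, lay between 31.5 and 151 CPM and between 24.8 and 131 CPM. Ero1l, an oxidase that forms disulfide bonds, lay between 39.5 and 416 CPM. Kdm3a, a histone demethylase, and Mxi1, an antagonist of Myc, had narrow ranges, from 81.2 to 214 CPM and from 24.3 to 79.5 CPM.

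Angptl4 (chromosome 17, 33773750 to 33781830), a secreted inhibitor of lipoprotein lipase, was the target with the lowest p between untreated genotypes. It was at 41.0, 37.8 and 61.9 CPM in wild-type and 22.7, 37.8 and 14.8 CPM in heterozygous untreated tumours, and at 35.8, 41.5 and 51.5 CPM and 32.6, 29.1 and 37.4 CPM with gemcitabine in the same order. The untreated groups touched at untreated heterozygous mouse 2. The log2 difference was -0.90 ± 0.32 without drug and -0.64 ± 0.23 on average (edgeR adjusted p = 0.308 and 0.523). Without untreated wild-type mouse 3 the first was -0.65.

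With edgeR no comparison gave a call among the members. Between untreated genotypes 0 of 43 members passed (edgeR adjusted p under 0.05), against 0.0166% of all genes. The background was 0.00416% between treated genotypes, 0% for the drug in wild-type mice, 0.00831% for the drug in heterozygous mice and for the difference of the drug effects, 0.0332% for the genotype average and 0.00831% for the drug average, and 0 members passed in each. So few genes passed with edgeR that 0 of 43 carries little information. At an unadjusted edgeR p under 0.05 stood 3, 2, 2, 1, 1, 3 and 1 members in the order just given, against 12.2%, 7.55%, 8.6%, 7.9%, 12.7%, 7.66% and 4.45% of all genes. DESeq2 called 1 member in each of 5 comparisons and none for gemcitabine in heterozygous mice or for the drug average. Of the 24065 genes it called 703 between untreated genotypes, 237 between treated genotypes and 120 for gemcitabine in wild-type mice. It called 652 for the difference of the drug effects and 304 for the genotype average. Beside these, 1 of 43 members is not a result about the members as a set. Limma voom called no member.

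Between untreated genotypes 24 of 43 members were lower in heterozygous tumours, and 46.3% of all genes were; the median log2 fold change was -0.09, against 0.04 for all genes. Car9 was higher without overlap (7.36% of all genes), and no member was lower without overlap (8.41%). Between treated genotypes 36 members were lower in heterozygous tumours, with 53.1% of all genes, and the median was -0.56 against -0.03. All 12 HIF targets were among these 36, with a median of -0.67 and single values from -2.03 to -0.11. An exact permutation test of 3 against 3 mice cannot go below p = 0.1, so groups that do not overlap are given as a description. Of the 43 members 6 did not overlap between treated genotypes. Pfkfb4 was higher (7.12% of all genes), and Hk2, Eno2, Pkm, Car9 and Egln1 were lower (6.59%). The members share tumours and vary together, so a count of directions is not a count of independent results.

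With gemcitabine 33 members were lower in wild-type mice (48.9% of all genes), with a median of -0.20 against 0.01, and 35 were lower in heterozygous mice (53.2%), with a median of -0.52 against -0.03. Car9 alone was higher without overlap in wild-type mice (6.53% of all genes), and Hif1a and the second Aldoa ID were lower without overlap (7.17%). In heterozygous mice Hk1, Eno1 and Car9 were lower without overlap (6.08%), and no member was higher without overlap (6.64%). The genotype and drug comparisons share groups, and their values are set side by side only.

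The medians rested on the 2 high tumours. Leaving out untreated wild-type mouse 3 turned the median between untreated genotypes from -0.09 to 0.56 and that of gemcitabine in wild-type mice from -0.20 to 0.38. Leaving out untreated heterozygous mouse 2 turned that of gemcitabine in heterozygous mice from -0.52 to 0.11 and took that between untreated genotypes to -0.69. Without both, the gemcitabine average went from -0.33 to 0.24. Only between treated genotypes, and in the average over treatments, did the median keep its sign under all alternatives. Between treated genotypes it lay between -0.75 and -0.37 with single tumours left out. With Xist status as a covariate it was -0.26 there, a value that does not separate genotype from sex. In the average over treatments the median lay between -0.60 and -0.04 with single tumours left out. By tumour, the members' median deviations were -0.33, 0.60 and 0.29 in treated wild-type mice 1 to 3. They were -0.08, -0.43 and -0.38 in treated heterozygous mice, so the treated groups overlapped. The pooled within-group SD of these medians over all 4 groups was 0.65. A kept sign is therefore a description and does not place the treated genotypes apart beyond the spread between tumours.

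**Figure D5:**
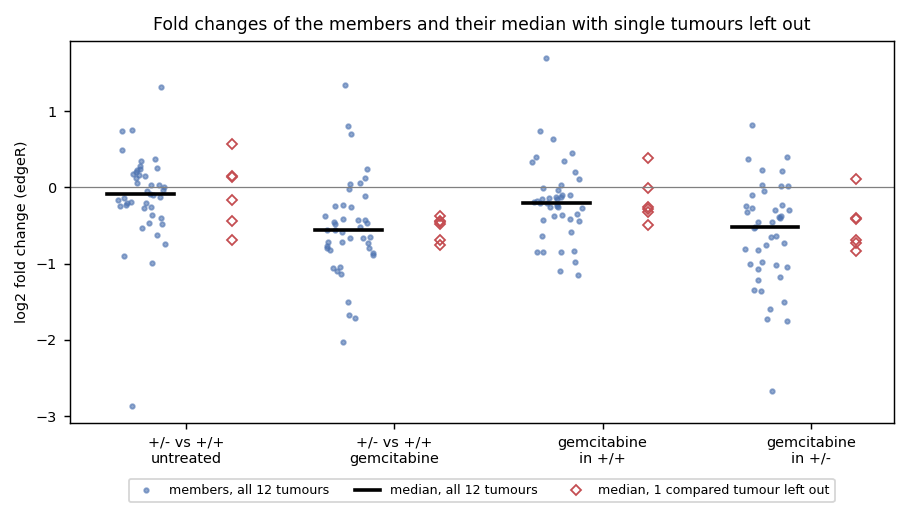
Log2 fold changes (edgeR) of the 43 members (points) in 4 comparisons, their median (bar), and that median when each of the 6 compared tumours is left out in turn (diamonds). The diamonds cross 0 in 3 of the comparisons and stay below 0, from -0.75 to -0.37, between treated genotypes.

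Markers of other cells moved with the treated genotypes too. Macrophage markers summed to between 608 and 1092 CPM in treated wild-type and between 1248 and 1781 CPM in treated heterozygous tumours, with none of 9 at 0. Lymphocyte markers summed to between 33.7 and 47.3 CPM and between 67.6 and 228 CPM. Duct epithelium summed to between 4478 and 9331 CPM and between 3625 and 4937 CPM, and fibroblast markers to between 5829 and 14700 CPM and between 3936 and 8126 CPM. Their part in the lower median of the treated heterozygous tumours was not tested.

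Other genes of these pathways gave no call with edgeR either. Of the 33 other glycolysis and pyruvate genes tested, 21 were lower between treated genotypes, with a median of -0.18. Of the 42 other hypoxia genes 37 were lower there, with a median of -0.39. Over all genes tested 53.1% were lower, with a median of -0.03. Between untreated genotypes, and with gemcitabine in wild-type and in heterozygous mice, 33, 33 and 29 of these hypoxia genes were lower. Their medians were -0.23, -0.375 and -0.32. The other glycolysis and pyruvate genes had 12, 17 and 21 lower. All genes had 46.3%, 48.9% and 53.2%. Slc16a7, the monocarboxylate transporter MCT2, was low, between 1.81 and 10.9 CPM, and its difference of drug effects was 2.69 ± 0.74 (edgeR adjusted p = 0.252). Hk3, the hexokinase of myeloid cells, had a log2 fold change of 1.26 ± 0.39 with gemcitabine in heterozygous mice (edgeR adjusted p = 0.593).

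Of the other hypoxia genes, Pygl, the liver glycogen phosphorylase, had a difference of drug effects of 1.99 ± 0.60 (edgeR adjusted p = 0.258), the opposite sign to Car9. It was at 65.5, 96.2 and 104 CPM in untreated wild-type, 48.7, 64.0 and 17.1 in untreated heterozygous, 54.2, 40.1 and 50.8 in treated wild-type and 103, 56.5 and 123 in treated heterozygous mice. Hif3a, a HIF subunit that can act as an inhibitor, averaged -1.22 ± 0.41 with gemcitabine (edgeR adjusted p = 0.942). Flt1, a receptor for VEGF-A, averaged -0.80 ± 0.28 between genotypes (edgeR adjusted p = 0.511). Macrophage markers summed to between 625 and 861 CPM in untreated and between 1248 and 1781 CPM in treated heterozygous tumours, without overlap, and their part in the values of Hk3, Slc16a7 and Pygl was not tested.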

How the data were processed

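Total RNA of snap-frozen tumours was sequenced after removal of ribosomal RNA, with stranded, randomly primed libraries, per the labels' protocols. The authors deposited RSEM expected counts per Ensembl gene, rounded to whole numbers, on GRCm38 per the submitters' processing notes; the versions, aligner, annotation release and strand setting were not stated there. Libraries held 39388328 to 56559413 counts, median 45785246.

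Symbols, positions and exon lengths came from GENCODE M21. Counts were filtered (filterByExpr), scaled by TMM (factors 0.897 to 1.093) and fitted with edgeR 4.0.16 in R 4.3.3 (robust quasi-likelihood, 1 mean per group, all 12 libraries, 7 comparisons). P-values were Benjamini-Hochberg adjusted over 24065 genes, with a threshold of 0.05. The fit was also run on simulated counts in which genes vary independently, unlike the members, and no result rests on it. CPM are counts over TMM-scaled totals, and intervals are at 95%. Alternatives used DESeq2 1.42.0, limma 3.58.1 voom, other scalings and filters, covariates, a replicate block, and tumours left out.

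Near-identical copies were transcripts matched by blastn 2.17.0 at 95% identity or more over at least 50% of the copy and 100 bases, limits set after the matches were seen. The Xist limit of 100 CPM was set with the levels known. Members, lists and marker lists were chosen with earlier results of these data known. All members are named by level. Fold changes are given for up to 8 members per comparison with the smallest unadjusted p under 0.05, and values per tumour also for Slc2a1, Ldha, Vegfa, Car9 and Hif1a. Of the other pathway lists the 3 genes with the smallest p in each are named, except 1 that is not reported here. Genes without overlap, the copies and the 2 high tumours were named after their values were seen. Same-numbered tumours of different groups correlated between -0.27 and 0.17 in their deviations (18 pairs), and others between -0.37 and 0.30 (36 pairs), so the numbers were not taken as pairs.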

Additional observations from a re-analysis of the deposited data

Results flagged for a closer look

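Car9 was marked for a closer look because gemcitabine went with higher levels in every treated wild-type tumour and with lower levels in every treated tumour labelled heterozygous, relative to all untreated tumours of the same genotype. The difference of the drug effects was -3.03 ± 0.59 on the log2 scale (edgeR adjusted p = 0.252), so it did not pass over all genes with edgeR. It passed with DESeq2 (adjusted p = 0.000736), and its adjusted p over 25 alternatives lay between 0.000736 and 0.673.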

How the results depend on the processing

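With edgeR or limma voom 0 members were called under any alternative, tumours left out included. DESeq2 called 1 member between untreated genotypes, between treated genotypes, for gemcitabine in wild-type mice, for the difference of the drug effects and for the genotype average. The cause was not tested. Over all genes DESeq2 called 703, 237, 120, 170, 652, 304 and 29 genes (untreated and treated genotypes, gemcitabine in wild-type and in heterozygous mice, difference of effects, genotype average, drug average), where edgeR called 4, 1, 0, 2, 2, 8 and 2.

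Members at an unadjusted p under 0.05 were 3, 2, 2, 1, 1, 3 and 1 in that order. With single tumours left out they ranged from 2 to 11, 1 to 4, 2 to 4, 1 to 7, 1 to 6, 2 to 12 and 1 to 8. Without both high tumours, an alternative chosen after seeing the data, they were 6, 5, 8, 4, 4, 6 and 6. DESeq2 gave 6 for gemcitabine in heterozygous mice and 2 for the drug average. With only the compared groups in the fit they were 3 for gemcitabine in heterozygous mice and 9 between treated genotypes. With Xist status as a covariate they were 0 between treated genotypes and 0 for the genotype average. Among treated mice that covariate equals genotype, so these counts do not adjust for sex there. In the main fit 12.2%, 7.55%, 8.6%, 7.9%, 12.7%, 7.66% and 4.45% of all genes stood under that p, in the order above. Shares of all genes under the alternatives are not given. Changes in the member counts here and below are therefore not results about the members.

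With the replicate block the counts were 3, 2, 2, 1, 1, 4 and 1, the Car9 difference of effects was -3.05 (edgeR adjusted p = 0.392), and no member's call changed. The numbers share no stated link between mice. The fold changes of Car9, Hif1a, Eno2, Angptl4 and Pfkfb4 named by the rule on small p kept their sign under all alternatives run, while Eno1 and Gapdh between untreated genotypes went from 0.49 to -0.47 and from 0.75 to -0.06 with copies summed. Depth was at least 39388328 counts in every library, and each group had 3 mice. Other scalings moved the median fold change of all genes by at most 0.041.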
